A study of Mus musculus with 2 samples.

Results

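The genes of the Wnt pathway examined here are 50 genes in 5 classes: 19 Wnt ligands, 4 R-spondins, 12 receptors, 9 secreted antagonists and 6 effectors inside the cell. They are 50 of the 21938 protein-coding genes of GENCODE M21 on the autosomes, X and Y. Their open regions were of 2 kinds. A TSS peak overlapped the sequence within 500 bp of any annotated transcription start site (TSS) of the gene. A distal peak had its centre more than 1 kb away from all protein-coding TSSs, and the nearest of them, within 100 kb, belonged to the gene. The members had 782 of the 208674 peaks of replicate 1 and 708 of the 196593 peaks of replicate 2. Of the 127632 peaks that both replicates shared, they had 464, made up of 66 TSS peaks and 398 distal peaks. Sharing required a replicate 2 peak to cover 50% or more of the replicate 1 peak.

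The data are DNase-seq, which maps chromatin that the enzyme DNase I can reach, from whole limbs of mouse embryos of strain B6NCrl at day 14.5. There was 1 group of 2 biological replicates, each a library from pooled male and female embryos, and no other tissue, age or treatment. The labels give both replicates the same donor identifier, so the spread between them may be technical in part. Replicate 2 carries the names of a pair of sequencing instruments, and replicate 1 none. The authors gave each peak a signal, a whole number with a median of 42 in replicate 1 and 31 in replicate 2, whose scaling is not given in the sources used here. Signals were therefore also ranked within their own list, as percentiles. The number of reads is unknown, and where a peak is missing, none was called at this depth. A shared TSS peak was present at 10 of 11 marker genes of limb mesenchyme, 4 of 5 of cartilage, 3 of 4 of muscle, and 2 of 3 each of epidermis and endothelium. Of 8 genes that mark liver, lung, heart or brain, only Rbfox3, a neuronal splicing factor, had one. The share was 64.7% over all 34 markers and 65.1% over all protein-coding genes. Markers of epidermis and of endothelium, at 66.7% each, were thus near the share of all genes. A whole limb mixes these cell types, and fewer cells of a type cannot be told apart from less open chromatin per cell.

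Wnt proteins are secreted lipid-modified ligands that bind a Frizzled receptor together with the co-receptor Lrp5 or Lrp6. In the canonical branch, binding halts the destruction of β-catenin, the product of Ctnnb1, which then enters the nucleus and activates genes through the TCF/LEF DNA-binding proteins. R-spondins raise the amount of receptor at the cell surface, most Dkk proteins bind the Lrp co-receptors, and Sfrp proteins and Frzb bind the ligands themselves. In the limb, Wnt signals from the ectoderm maintain the apical ridge and set the dorsal side, Wnt5a guides outgrowth, and Wnt activity later marks the joints and holds back cartilage.

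The TCF/LEF proteins bind DNA at a short site, which was looked for in the open regions of these genes. It was searched as the heptamer CTTTGAT or CTTTGAA on either strand, where the other strand reads ATCAAAG or TTCAAAG. A match describes the letters only and is not a measured site of binding. The sequences given here are, in each class, the shared distal peak of highest mean percentile that holds it. They are the plus strand of mm10, written 5′ to 3′, with the heptamer in capitals. No distal peak of an R-spondin held the heptamer.
Axin2 distal peak, chr11:108947536-108947685: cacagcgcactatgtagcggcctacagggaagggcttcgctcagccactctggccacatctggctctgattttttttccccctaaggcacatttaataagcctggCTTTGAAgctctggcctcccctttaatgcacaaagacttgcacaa
Fzd2 distal peak, chr11:102595536-102595685: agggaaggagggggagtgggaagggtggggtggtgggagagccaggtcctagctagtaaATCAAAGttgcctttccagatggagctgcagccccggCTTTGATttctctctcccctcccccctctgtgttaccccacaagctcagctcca
Dkk3 distal peak, chr7:112180276-112180425: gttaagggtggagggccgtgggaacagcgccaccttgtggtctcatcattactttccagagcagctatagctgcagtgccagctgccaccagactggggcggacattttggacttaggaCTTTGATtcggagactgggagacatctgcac
Wnt11 distal peak, chr7:98836796-98836945: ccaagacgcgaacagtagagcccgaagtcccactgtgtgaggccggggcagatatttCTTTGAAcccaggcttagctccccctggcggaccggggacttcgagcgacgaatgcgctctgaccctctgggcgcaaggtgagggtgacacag

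The Axin2 distal peak lay in an intron of Axin2, 3.99 kb downstream of its nearest TSS, with a replicate 1 signal of 114 and a replicate 2 signal of 78. The Fzd2 peak was intergenic, 8.79 kb upstream, and had signals of 110 and 92. It holds the heptamer 2 times, in opposite orientations. Intergenic here means outside protein-coding genes, and noncoding genes were not checked. The Dkk3 peak, intergenic and 21.3 kb upstream, had signals of 108 and 79, and the Wnt11 peak, in a Wnt11 intron 1.74 kb downstream of its nearest TSS, had 86 and 52. All 4 lay at or above the mean percentile of 85.0, but each was picked as the highest of its class among distal peaks with the heptamer.

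The heptamer also stood in TSS peaks of 6 members, which are given because the shares by class rest on them. Where such a peak overlaps an annotated untranslated region, only the heptamer with 10 bases on each side is shown. The peaks of Tcf7 and Lrp6 are shown whole.
Axin2 TSS peak 1, chr11:108920780-108920806: cggctcgcgcCTTTGAAgtgcacagtt
Axin2 TSS peak 2, left heptamer, chr11:108921222-108921248: ggccggcgcgCTTTGATgtgcggggcg
Axin2 TSS peak 2, right heptamer, chr11:108921242-108921268: cggggcggcgCTTTGAAgttggcaggc
Axin2 TSS peak 3, chr11:108923062-108923088: tactttcttgCTTTGATgttgggtaga
Tcf7 TSS peak, chr11:52283356-52283505: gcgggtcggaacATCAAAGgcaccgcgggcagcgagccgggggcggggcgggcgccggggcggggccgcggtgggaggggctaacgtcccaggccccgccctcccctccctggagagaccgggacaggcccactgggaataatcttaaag
Dkk1 TSS peak, chr19:30549597-30549623: gggatgggatTTCAAAGctttgggagg
Dkk2 TSS peak, chr3:132085760-132085786: ggcgtctggcCTTTGATtgcttccagg
Wnt11 TSS peak, chr7:98835051-98835077: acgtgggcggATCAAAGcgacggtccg
Lrp6 TSS peak, chr6:134470956-134471105: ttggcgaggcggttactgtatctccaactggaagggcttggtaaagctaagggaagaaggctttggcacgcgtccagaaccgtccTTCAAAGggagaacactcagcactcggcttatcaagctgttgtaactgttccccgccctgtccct

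The 3 Axin2 peaks lay within 106 bp of an annotated Axin2 TSS, measured from their centres. Peak 1 had a replicate 1 signal of 128 and a replicate 2 signal of 99, peak 2 had 102 and 54, and peak 3 had 79 and 57. Axin2 scaffolds the complex that destroys β-catenin and is itself a well-known target of the pathway. The Tcf7 peak, 416 bp upstream, had signals of 89 and 60, and the Dkk1 peak, 115 bp downstream, had 79 and 42. The Dkk2 peak, in an exon 498 bp downstream, had signals of 61 and 46, and the Wnt11 peak, 22 bp upstream, had 68 and 53. The Lrp6 peak, in an exon 263 bp downstream of an inner start site, had 44 and 59.

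Most of the pathway was open at its TSSs in the limb, with the receptors and effectors open almost throughout and the ligands open in part. A gene is called open here when it has at least 1 shared TSS peak. This held for 39 of 50 members (78%), against 65.1% of all protein-coding genes. The class counts were 11 of 19 ligands (57.9%), 4 of 4 R-spondins, 11 of 12 receptors (91.7%), 7 of 9 antagonists (77.8%) and 6 of 6 effectors. In replicate 1 alone, 45 members had a TSS peak, against 69.4% of all genes. In replicate 2 alone, 41 members had one, against 68.2% of all genes. The ligands differed most between the lists, with 15 genes in replicate 1 and 12 in replicate 2, while all 12 receptors had a TSS peak in each list. By shared peaks within 500 bp, the ligand class was the only one of the 5 below the share of all genes, and this turned with the rule. Ligands stood above it in replicate 1 alone, at 78.9% against 69.4%, by hotspots, the authors' broader regions, at 57.9% against 57.2%, and with windows of 1000 bp, at 68.4% against 67.3%. Among the 50000 strongest peaks of each list, R-spondins were below it too, at 25% against 55.3%, and so were the members as a whole, at 54%. By hotspots shared under the same 50% rule, 9 of 12 receptors, 4 of 6 effectors and 5 of 9 antagonists were open. The genes of these classes lost in this way had TSS hotspots in both replicates that overlapped too little. No test was run on these counts, because the members were chosen with results of these data known.

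**Figure D1:**
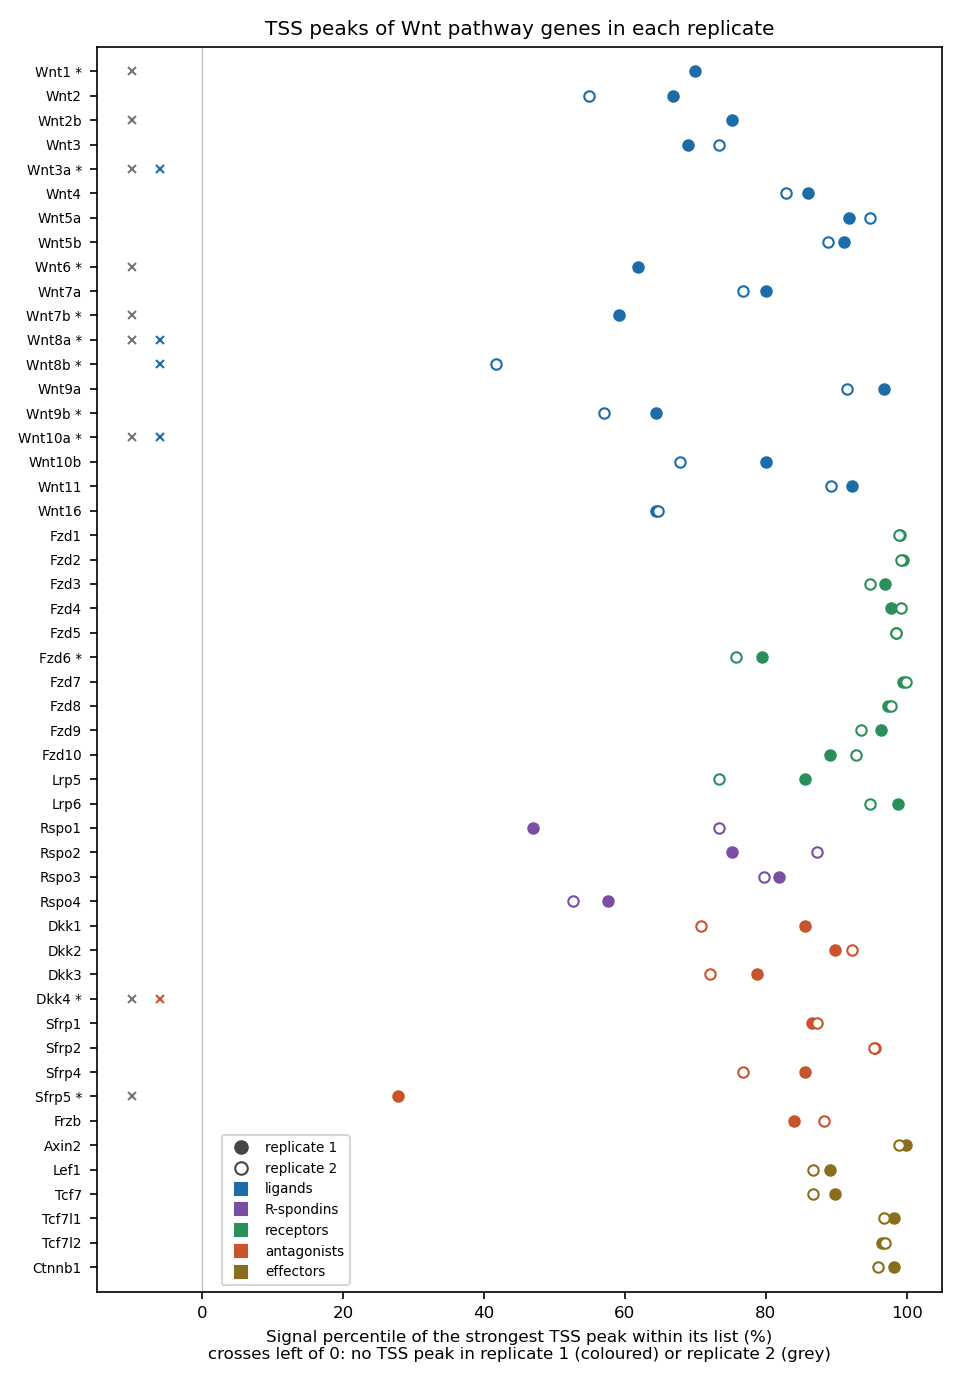
Signal percentile of the strongest TSS peak of each of the 50 genes within its list, filled for replicate 1 and open for replicate 2, with colours for the classes. Crosses left of 0 mark genes with no TSS peak in a replicate, and an asterisk marks the 11 genes with no shared one. Receptors other than Fzd6, Fzd10 and Lrp5 lie at 93.5 or above in both replicates, and the gaps fall mostly among the ligands.

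Among the ligands, Wnt9a, which acts at forming joints, had the strongest shared TSS peak (chr11:59306776-59306925), at 120 in replicate 1 and 71 in replicate 2. Wnt11, a ligand of the non-canonical branch, reached 97 and 65. Wnt5a, the main non-canonical ligand of limb outgrowth, reached 95 and 84 over 9 peaks in replicate 1 and 7 in replicate 2. These genes carried the strongest promoters of the class, together with Wnt5b at 93 and 64 and Wnt4, another joint ligand, at 80 and 54. Wnt5a, with 6 annotated start sites, had 6 shared TSS peaks, the most of any member. Wnt7a, which sets the dorsal side of the limb from the ectoderm, had 69 and 47, and Wnt10b, a ligand known in bone, had 69 and 40. Wnt3, the ligand of the mouse limb ectoderm needed for the apical ridge, had 55 and 44. Wnt2, Wnt2b and Wnt16 complete the open ligands. Wnt2 had signals of 53 and 33, and Wnt16 had 51 and 38. The shared TSS peak of Wnt2b had 62 in replicate 1 and its match in replicate 2 had 47, with the match just outside the window. These last ligands had percentiles between 54.9 and 76.8, under those of Wnt9a and Wnt5a.

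The other 8 ligands had no shared TSS peak, and they fell short in different ways. Wnt9b had 1 TSS peak in each replicate, with signals of 51 and 34, which overlapped by only 70 bp. Wnt1 had 1 peak in replicate 1 alone with a signal of 56, Wnt6 had 2 with 49 and 43, and Wnt7b had 2 with 47 and 37. Wnt8b had 1 peak in replicate 2 alone with a signal of 28. Wnt3a, Wnt8a and Wnt10a had no TSS peak in either list. All these signals were modest, with percentiles between 40.4 and 70.0. Wnt1, Wnt3a and Wnt8b are best known from the nervous system, and Wnt6, Wnt7b and Wnt10a from embryonic ectoderm and skin.

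All 4 R-spondins were open, each through a single shared TSS peak of middling signal. Rspo2, which limb development is known to require, had its strongest TSS peak at 62 in replicate 1 and 61 in replicate 2. Rspo3 had 72 and 50, Rspo1 had 40 and 44, and Rspo4 had 46 and 32. The mean percentiles of these shared peaks lay between 55.1 and 81.3, so none was among the strong promoters of the limb.

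The receptors had the strongest promoters of the pathway. Fzd7 was highest (chr1:59481956-59482105), at 136 in replicate 1, 127 in replicate 2 and a mean percentile of 99.7. Fzd2 had 136 and 116, Fzd1 133 and 113, and Fzd5 130 and 109. Frizzleds are membrane proteins with many passes that receive the ligand through a cysteine-rich outer domain. Fzd4 had 126 and 116, Fzd8 123 and 103, Fzd3 121 and 84, and Fzd9 117 and 78. Fzd10 was lower, at 87 and 75. The only shared TSS peak of Fzd4 also lay within 500 bp of a TSS of another gene, Tmem135. Of the co-receptors, Lrp6 had 132 and 84, and Lrp5, which is known for its part in bone mass, had 79 and 44. Fzd6, known from hair and planar polarity, was the 1 receptor without a shared TSS peak. It had 6 TSS peaks in replicate 1, the strongest at 68, and 1 in replicate 2 at 46, which overlapped a replicate 1 peak by at most 30 bp. Both replicates therefore had a TSS peak at Fzd6, with little overlap.

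Of the antagonists, Sfrp2, a decoy that binds Wnt ligands in mesenchyme, had the strongest promoter (chr3:83766176-83766325), at 112 in replicate 1 and 87 in replicate 2. Dkk2 had 89 and 73, and Sfrp1 had 81 and 61. Dkk1, an Lrp5 and Lrp6 blocker needed for normal digits in the mouse, had 79 and 42. Frzb, a decoy known from cartilage, had 76 and 63, Sfrp4 had 79 and 47, and Dkk3, a relative of the Dkk family, had 67 and 43. The median percentile of these genes lay between those of the open ligands and receptors, but single genes overlapped both classes. Dkk3 at 75.4 and Dkk1 at 78.1 were under the ligand median of 78.4, and Sfrp2 at 95.4 was above Lrp5, Fzd10 and Fzd9. Sfrp5 had a TSS peak in replicate 1 alone, at 32, and Dkk4 had none in either list.

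The effectors were all open, and 4 of the 6 had 2 or more shared TSS peaks. Over all members 14 of 50 (28%) had 2 or more, against 32.9% of all genes. Axin2 had the highest promoter peak (chr11:108920276-108920425), at 141 in replicate 1 and 113 in replicate 2, and 4 shared TSS peaks in all. Tcf7l1, a TCF factor known mainly as a repressor, had 128 and 96, and Ctnnb1 had 128 and 90. Tcf7 had 89 and 60, and Lef1 had 87 and 60. Tcf7 and Lef1 are the factors that the mouse limb is known to need together. Tcf7l2 had 118 in replicate 1 and 97 in replicate 2 at its outermost start site, but these peaks overlapped by less than 50% and were not shared. Its strongest shared TSS peak, at an inner start site, had 76 and 44. With the outermost 5′ end of each gene as its only start, 3 of the 6 effectors had a shared TSS peak, against 59.1% of all genes, and Lef1, Tcf7l2 and Ctnnb1 were lost. Their calls rest on inner start sites, and Tcf7l2 has 17 annotated starts against a median of 3 over all genes.

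Signal separated the classes more clearly than the counts did. The strongest shared TSS peak of an open gene had a median percentile of 97.5 in the receptors, 92.6 in the effectors, 86.2 in the antagonists, 78.4 in the ligands and 70.5 in the R-spondins, against 96.0 over all open genes. Receptors thus sat near the typical open promoter, and ligands and R-spondins well under it. The ligand quartiles, 72.6 and 90.4, did not reach those of the receptors, 95.4 and 98.7. Over all 66 TSS peaks of the members, the median was 81.0, against 89.3 over all shared TSS peaks.

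CpG content differed among the classes, in another order than the shares of open genes. It is given as the ratio of observed to expected CpG, the highest over the windows of a gene. Its median was 0.920 in the effectors, 0.852 in the receptors, 0.748 in the ligands, 0.690 in the R-spondins and 0.526 in the antagonists, against 0.627 over all genes. Genes were put into 10 equal bins of this ratio, and the share of open genes in each member's bin was averaged. That share was 81.8% for the ligands, of which 57.9% were open, and 94.7% for the receptors, of which 91.7% were open. For the antagonists it was 71.4%, with 77.8% open, and over all members 85.4%, with 78% open. The share of open genes was thus lower in the ligands and, slightly, in the receptors than in genes of like CpG content. It was higher in the antagonists, the R-spondins (100% against 91.4%) and the effectors (100% against 95.6%), with no test of any. Whether CpG content sets these shares was not tested.

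Away from promoters the order changed, and ligands were rich in distal peaks. Every one of the 50 members had at least 1 shared distal peak, against 64.9% of all genes. The members had 398, or 7.96 per gene on average and 6.5 at the median, against an average of 3.46 and a median of 1 over all genes. Replicate 1 alone gave 667 and replicate 2 alone 616. The median per gene was 15.5 in the effectors, 7.5 in the receptors, 7 in the antagonists, 6 in the ligands and 3.5 in the R-spondins.

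Larger gaps between genes leave more room for distal peaks, so counts were also set against the territory of a gene, the distal sequence that the nearest-TSS rule gives to it. The members had a median territory of 86.1 kb, against 40.7 kb over all genes. Per 100 kb of territory there were 10 shared distal peaks in the effectors, 9.27 in the ligands, 7.70 in the receptors, 7.36 in the antagonists and 3.62 in the R-spondins. Together the members had 8.18 per 100 kb, against 4.79 over all genes. Compared with genes in the same of 10 bins of territory size, 38 of the 50 members had more distal peaks than the median. These were 16 of 19 ligands, 10 of 12 receptors, 5 of 9 antagonists, 6 of 6 effectors and 1 of 4 R-spondins.

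**Figure D2:**
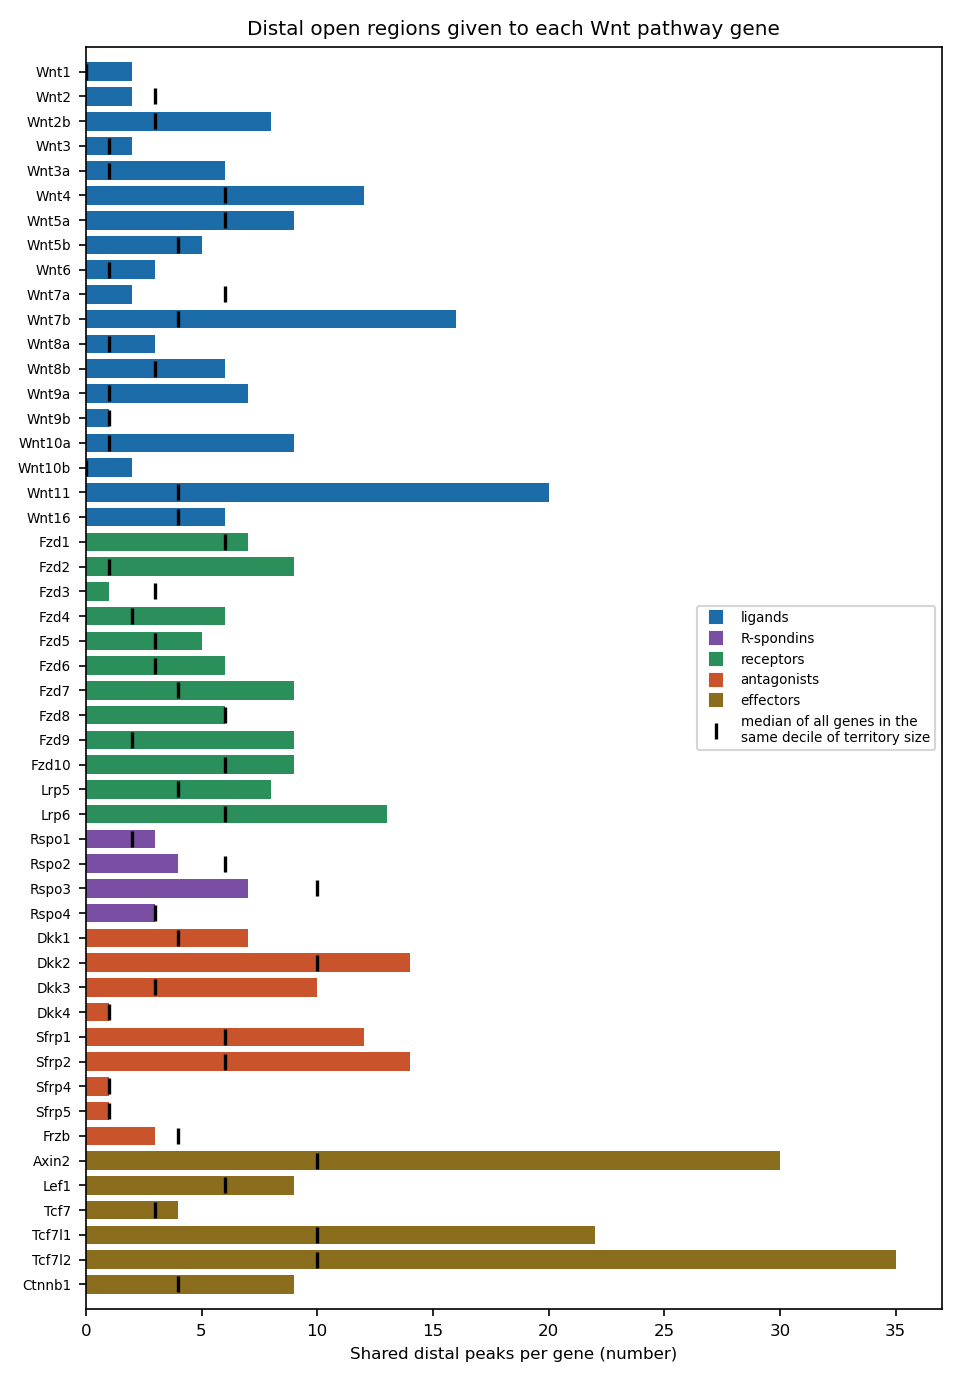
Number of shared distal peaks given to each gene, coloured by class, with a black tick at the median of all genes in the same of 10 bins of territory size. Tcf7l2 with 35, Axin2 with 30 and Tcf7l1 with 22 stand highest, and most bars pass their tick, whereas only 1 of the 4 R-spondins does.

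Distal peaks were also dense around members with no shared TSS peak. These 11 members had 54 distal peaks, or 11.3 per 100 kb, against 2.88 per 100 kb over all genes with no shared TSS peak. The sets compared are not alike. Of the 11 members, 4 had no TSS peak in either list, against 6412 of the 7654 genes. The median CpG ratio was 0.665 in these members and 0.211 in these genes. The 39 open members had 7.85 per 100 kb, against 5.53 over all open genes. Wnt10a, with no TSS peak in either list, had 9 shared distal peaks in a territory of 33.3 kb. That is 27.0 per 100 kb, the highest density of any member. Wnt7b, with TSS peaks in replicate 1 alone, had 16 distal peaks, 14 of them upstream. Wnt3a had 6, Wnt8b 6, Fzd6 6, Wnt6 3 and Wnt8a 3, and Wnt1 had 2. The remaining 3, Wnt9b, Dkk4 and Sfrp5, had 1 each. Wnt1, Wnt3a and Wnt9b each sit beside an open Wnt gene, and the nearest-TSS rule cannot say which of the neighbours a peak serves.

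The strongest distal peak of the 50 members was given to Wnt7b (chr15:85634596-85634745), a region outside protein-coding genes, 52.2 kb upstream of its nearest TSS. Its signal was 139 in replicate 1 and 117 in replicate 2, a mean percentile of 99.6, while the Wnt7b TSS peaks themselves reached 47 in replicate 1 and were absent from replicate 2. The next was 29.6 kb upstream of Wnt7a (chr6:91440856-91441005), with signals of 128 and 102. With 1 other, Wnt7a had 2 shared distal peaks, against a median of 6 among genes of like territory. Its lists held more, with 7 distal peaks in replicate 1 and 11 in replicate 2, most of them not shared. A pair of peaks in introns of Tcf7l1 followed, with 124 and 106 at 15.9 kb downstream and 114 and 107 at 40.4 kb upstream of the nearest Tcf7l1 TSS. The fifth was 20 kb downstream of Fzd2 (chr11:102624336-102624485), with 119 and 101. In the remaining classes the strongest was 1.87 kb upstream of Sfrp2, with 114 and 89, and in an intron of Rspo3, 2.86 kb downstream, with 103 and 86. All 7 had mean percentiles of 94.5 or above.

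Among the ligands, Wnt11 had the most distal peaks, with 35 in replicate 1, 29 in replicate 2 and 20 shared. They ran from 8 upstream to 12 downstream, and their density was 17.1 per 100 kb. Wnt7b had 24, 16 and 16, and Wnt4 had 24, 17 and 12. Wnt11 stood above 99.2% and Wnt7b above 97.3% of the genes in their bins of territory size. Wnt5a had 9 shared distal peaks, the strongest in an intron 1.77 kb downstream with signals of 100 and 73, and Wnt9a had 7 in only 40.5 kb of territory. As a class, the ligand peaks were strong, with a median percentile of 71.8, against 61.4 for the distal peaks of all genes. Of the 121, 18 (14.9%) lay at or above percentile 90, against 7.70% over all genes.

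The R-spondins stood at the other end. They had 17 shared distal peaks in 469.9 kb of territory, and these had a median percentile of 36.3, the lowest of the 5 classes. Rspo3 had 7, Rspo2 had 4, and Rspo1 and Rspo4 had 3 each. Rspo3 and Rspo2 each fell under the median of genes with like territory, 10 and 6. The strong Rspo3 intron peak was the single one of the 17 at or above percentile 90. Of the 4 Rspo2 peaks, the strongest had 47 in replicate 1 and 42 in replicate 2, a mean percentile of 65.0, and the other 3 lay at 36.3 or under.

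Of the receptors, Lrp6 had the most distal peaks, with 20 in replicate 1, 17 in replicate 2 and 13 shared, of which 12 lay within the Lrp6 gene. Fzd2, Fzd7, Fzd9 and Fzd10 had 9 shared each. The density at Fzd2, 22.4 per 100 kb, came next to that of Wnt10a among the members. Few receptor peaks lay far out, with 8 of 88 (9.09%) over 50 kb away, against 18.5% over all genes. Their median distance of 19.7 kb was not shorter than the 17.6 kb of all genes, and 34.1% lay within 10 kb, against 34.8%. Of the 88, 14 (15.9%) fell in exons, against 4.67% over all genes. Several Frizzled genes have a single coding exon, and whether this bears on the share in exons was not tested. Fzd3 had only 1 shared distal peak, of mean percentile 10.6.

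Among the antagonists, Dkk2 and Sfrp2 had 14 shared distal peaks each and Sfrp1 had 12. Dkk2 had 21 in replicate 1 and 22 in replicate 2, Sfrp2 23 and 21, and Sfrp1 16 and 16. Of the 63 peaks of the class, 22 (34.9%) were over 50 kb away, against 18.5% over all genes. The class had a median territory of 89.5 kb, against 40.7 kb over all genes, and distances were not compared within bins of territory. No shared distal peak of Sfrp1 was nearer than 23.2 kb. Dkk1 had 1 peak upstream of its TSS and 6 downstream. Dkk3 had 10 in 65.6 kb, more than 94.3% of genes in its bin. Sfrp4, with a territory of 25.1 kb, had 1.

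The effectors held the largest sets. Tcf7l2 had 55 distal peaks in replicate 1, 61 in replicate 2 and 35 shared, of which 25 lay within the gene. Axin2 had 44, 42 and 30, and only 6 of its shared ones lay within the gene. Tcf7l1 had 37, 27 and 22, with 20 inside the gene. Their counts are not equal in room, since the territory of Tcf7l2 was 347 kb and that of Axin2 199 kb. Density was highest at Axin2, with 15.1 per 100 kb, followed by Tcf7l1 with 11.6 and Tcf7l2 with 10.1. Introns held 57 of the 109 effector peaks (52.3%), against 48.6% of distal peaks over all genes, and 30 of the 121 ligand peaks (24.8%). Over 50 kb away were 37 of the 109 (33.9%).

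**Figure D3:**
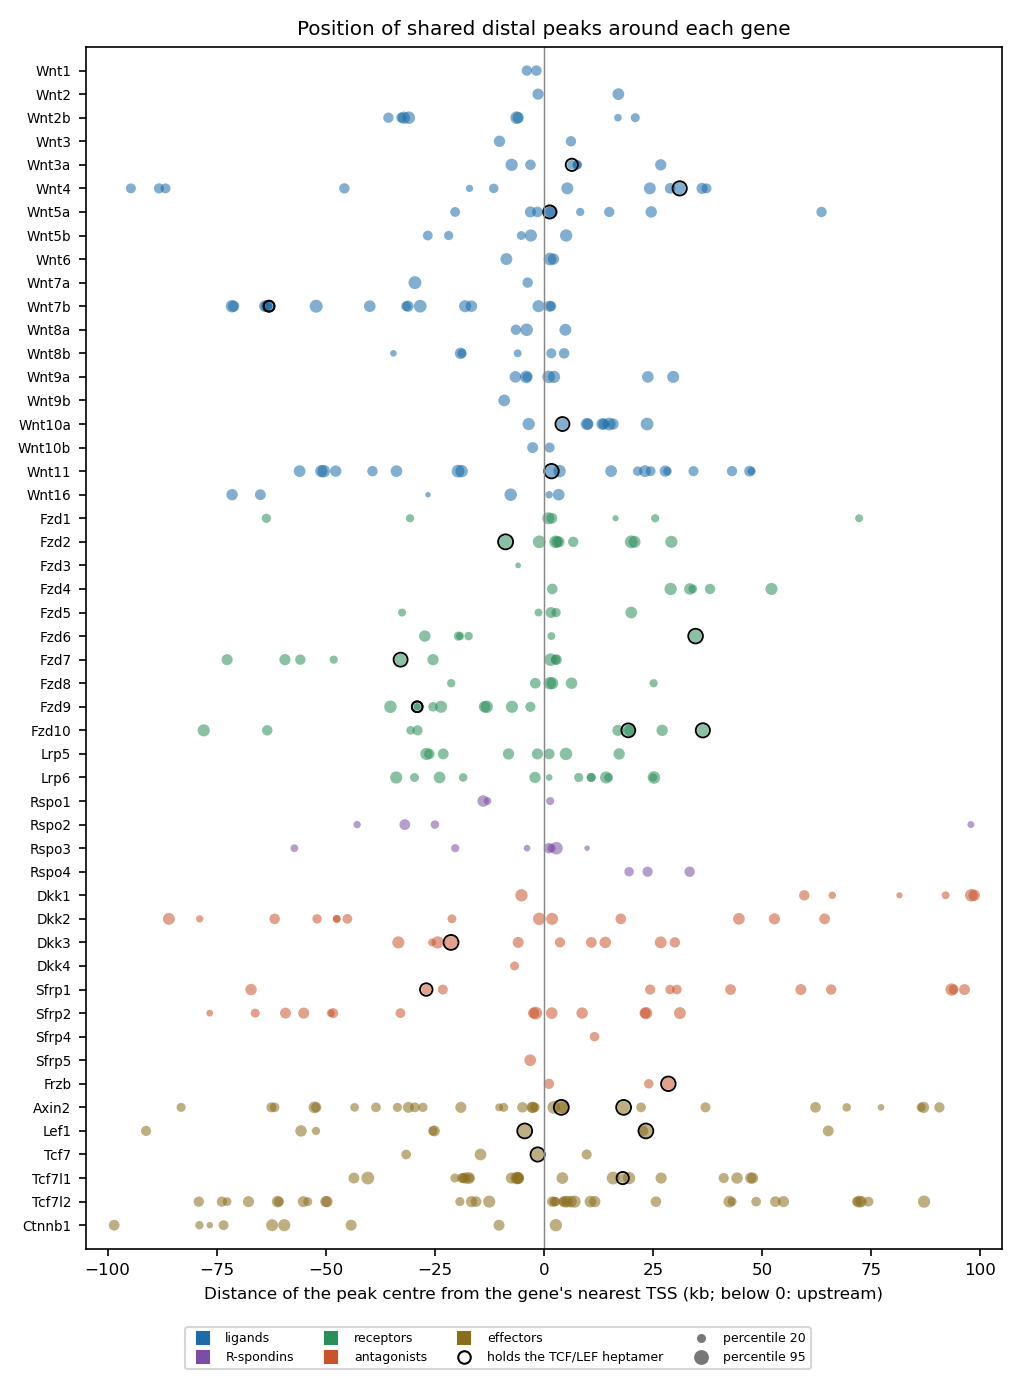
Distance of each of the 398 shared distal peaks from the nearest TSS of its gene, in kb with upstream below 0, with larger points for a higher mean signal percentile and black rings for peaks that hold the TCF/LEF heptamer. Of the 88 receptor peaks 8 lie beyond 50 kb, as do 22 of the 63 antagonist peaks, and 23 peaks of 18 genes carry a ring.

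The TCF/LEF heptamer stood in distal peaks of the pathway at about the share of all genes, and in its TSS peaks at a higher share. Of 398 distal peaks, 23 held it (5.78%, 95% Wilson interval 3.88 to 8.52), against 5.52% of the distal peaks of all genes and 4.95% of those of like GC content. Receptors had it in 7 of 88 (7.95%), ligands in 7 of 121 (5.79%), effectors in 6 of 109 (5.50%), antagonists in 3 of 63 (4.76%) and R-spondins in 0 of 17. A count of 0 in 17 has an upper Wilson limit of 18.4%. The distal peaks with the heptamer in effector genes were mostly strong, with a median percentile of 92.7, against 63.7 for the other distal peaks of the effectors. They include a pair at Axin2 and a pair at Lef1, each at 92.2 or above. Over all members the medians were 80.9 with and 66.1 without the heptamer, whereas over all genes they were 59.0 and 61.7. In the ligands the order was the other way, at 62.0 for the 7 peaks with the heptamer and 71.8 for the 114 without. The 7 include 2 overlapping Wnt7b peaks, at 22.0 and 28.5, which are not independent. Both are also counted in the heptamer shares of the ligands and of all members. The comparison of signals was added after the data were seen.

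**Figure D4:**
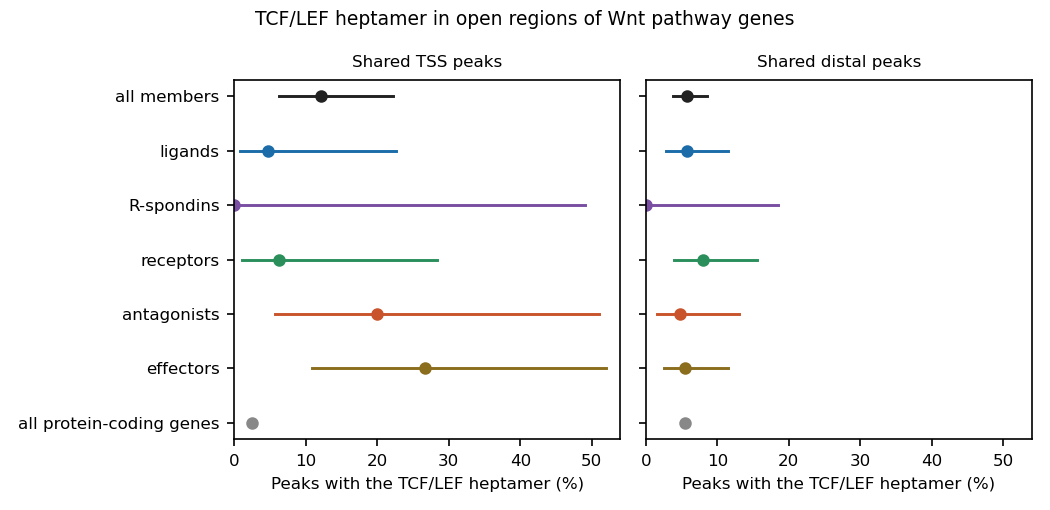
Percentage of shared TSS peaks (left) and shared distal peaks (right) that hold the TCF/LEF heptamer on either strand, for all members, each class and all protein-coding genes, with 95% Wilson intervals over peaks for the members and classes. The members reach 12.1% at TSS peaks, against 2.48% over all genes, and 5.78% at distal peaks, against 5.52%.

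Of the 66 shared TSS peaks, 8 held the heptamer (12.1%, 95% Wilson interval 6.27 to 22.1), against 582 of 23480 over all genes (2.48%) and 1.98% of TSS peaks of like GC content. They were the peaks of Axin2, Tcf7, Dkk1, Dkk2, Wnt11 and Lrp6 already printed. By class there were 4 of 15 in the effectors (26.7%), 2 of 10 in the antagonists, 1 of 16 in the receptors, 1 of 21 in the ligands and 0 of 4 in the R-spondins. By gene, 6 of the 39 open members had such a peak, against 4.24% of all open genes. Axin2 alone gave 3 of the 8, and without its peaks the share was 8.06%. CTTTGAT alone stood in 5 of the 66 (7.58%), against 1.03% over all genes. This comparison was also added after the data were seen. The intervals cover the sampling of peaks only, and peaks of 1 gene are not independent of each other.

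Other parts of the pathway were open more evenly. Of 55 further Wnt genes, 52 had a shared TSS peak (94.5%), against 65.1% of all genes. The share in genes of like CpG content was not computed for them, whereas for the 50 members it was 85.4%. All 16 cytoplasmic genes were open, among them Axin1 at 135 in replicate 1 and 111 in replicate 2. So were all 7 further receptors and co-receptors (Ror1, Ror2, Ryk, Ptk7, Lgr4, Lgr5 and Lgr6), both genes of Wnt secretion and the 3 glypicans. Axin1 is the scaffold of β-catenin destruction that most cells carry. Of the secreted or surface inhibitors 8 of 9 were open, and of the nuclear and planar polarity genes 7 of 8 each. Sost, a bone-cell inhibitor of Lrp5 and Lrp6, had no TSS peak in either list. Pygo1, a β-catenin cofactor, and Celsr1, a planar polarity cadherin, had TSS peaks in both replicates that were not shared. These 55 genes had 477 distal peaks with a median of 7 per gene. The most were at Tle3, a co-repressor that binds TCF factors, with 33. Prickle1, a planar polarity protein, had 30, and Ror2, a receptor of Wnt5a, had 24. By shared peaks within 500 bp, the ligands, at 57.9%, had the lowest share of open genes among these sets and classes.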

How the data were processed

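DNase-seq peaks and hotspots from 2 replicate limb libraries were used as deposited. Per the deposited file lists, peaks and hotspots were called on mm10 in each library separately. Which aligner, caller and filters were used is not stated in these sources. The peak signal is the authors' own whole-number value, of unstated scaling. Hotspots carry a −log10 of the q-value, as deposited. Hotspots, broader regions of cutting, served as an alternative only. Read counts were not used here, so depth is unknown and intervals cover the sampling of peaks.

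Peaks on the autosomes, X and Y were kept. Percentiles are ranks of the signal within its list, averaged over both replicates for a shared peak. Genes and start sites came from GENCODE M21. Sequences were read from GRCm38.p6, which is mm10. Its bases were checked against the 43 RefSeq promoters of the members, and all 43 were identical. Motifs were searched in the 150 bp of a peak on both strands: the TCF/LEF heptamer and, among others, the CTCF site. CpG, GC and territory were compared in 10 bins of equal size. Scripts used Python 3.11.15, pandas 2.3.3, numpy 2.4.6, scipy 1.17.1, pysam 0.24.0 and matplotlib 3.10.9, and were tested on simulated data.

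The members and lists were chosen with earlier results of these data known, so no test was run and shares are set beside those of all protein-coding genes. All 50 members are accounted for. Full values are given, per class, for the 3 with most shared distal peaks, the one with the highest TSS percentile, those with no shared TSS peak and the strongest distal peak. They are also given for the 5 strongest distal peaks overall and, of the other pathway genes, the 3 with most distal peaks and those with no shared TSS peak.

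Alternatives were each replicate alone, an overlap of 1 bp, the 50000 strongest peaks, hotspots, start-site windows of 250 bp and of 1000 bp, only the outermost 5′ end, distances of 50 kb and 2 kb, coordinates of replicate 2, R-spondins counted with ligands, ranks among shared peaks of one kind, CTTTGAT alone and windows of 300 bp. Merging overlapping distal peaks, and all settings for the heptamer at TSS peaks, were added after seeing the data.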

Additional observations from a re-analysis of the deposited data

How the results depend on the processing

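Of the 149 alternative values for the main class results, 103 stayed near the reported value and 46 moved. Near meant within a fixed ratio for counts. For percentiles and heptamer shares it meant within the standard deviation of the replicates taken alone. Reported percentiles average both replicates, so 1 replicate alone tends to stay near, while ranking among shared peaks changes the scale. The split into 103 and 46 is therefore no measure of robustness. Set against the value of all genes, the share of open members turned from one side to the other in 8 of 49, the distal heptamer share in 11 of 24, the TSS heptamer share in 2 of 30, the distal percentile, which became equal, in 1 of 18 and the TSS percentile in 0 of 18. The 8 turns of open members include ligands with the R-spondins counted in, at 65.2% against 65.1%, and antagonists by hotspots, at 55.6% against 57.2%. With the 50000 strongest peaks of each list, 6 ligands and 1 R-spondin had a shared TSS peak, against 55.3% of all genes. With the outermost 5′ end alone 3 effectors did. Distal peaks among the 50000 strongest numbered 108 over all members, 40 in ligands, 2 in R-spondins, 27 in receptors, 16 in antagonists and 23 in effectors. Within 50 kb there were 41 in antagonists and 72 in effectors. The replicates taken alone gave 616 to 667 distal peaks over all members, 172 to 192 in ligands, 30 to 31 in R-spondins, 149 to 154 in receptors, 94 to 103 in antagonists and 170 to 188 in effectors. They are larger by construction, since no match is required. Taken alone, the replicates put the median TSS percentile at 82.5 to 84.8 over all members and 85.0 to 88.2 in effectors. The distal one was 67.9 with either in receptors, 63.2 to 69.3 in antagonists and 64.5 to 66.3 in effectors. Ranked among shared TSS peaks only, the median percentile was 36.8 over all members, 30.6 in ligands, 27.9 in R-spondins, 68.6 in receptors, 36.2 in antagonists and 46.2 in effectors, against 49.8 over all genes. Ranked among shared distal peaks only, it was 55.8, 63.0, 19.9, 56.6, 53.3 and 55.4 in the same order, against 48.9. The heptamer share of distal peaks was 5.84% to 6.45% in each replicate alone, 2.51% for CTTTGAT alone (2.13% over all genes) and 10.3% in windows of 300 bp (11.6%). That of TSS peaks was 9.78% to 12.2% in each replicate alone, 7.58% for CTTTGAT alone, 18.2% in windows of 300 bp (5.39% over all genes) and 8.06% without Axin2. Openness was gained by Wnt9b and Fzd6 with an overlap of 1 bp, by Wnt7b and Fzd6 by hotspots, and by Wnt7b, Wnt8a and Fzd6 with windows of 1000 bp. It was lost by Wnt16, Fzd4, Fzd9, Fzd10, Dkk3, Frzb, Lef1 and Ctnnb1 by hotspots (33 of 50 open), by Wnt2b, Wnt7a, Wnt10b, Fzd7 and Lef1 with windows of 250 bp (34 open), by Wnt10b, Wnt16, Lef1, Tcf7l2 and Ctnnb1 with the outermost end alone (34 open), and by 12 members among the 50000 strongest peaks (27 open). The members lost by hotspots had TSS hotspots in both replicates, but no replicate 2 hotspot covered 50% or more of a replicate 1 one. Other than where stated, the cause was not tested. No paired analysis was possible because there is only 1 group.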

Other observations

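Of the 19 Wnt genes, 8 lie in neighbouring couples on the same chromosome, and the couples were uneven in their TSS peaks. Wnt10b and Wnt1, 11.7 kb apart on chromosome 15 and transcribed away from each other, had 1 and 0 shared TSS peaks. Wnt9a and Wnt3a, 16.2 kb apart on chromosome 11, had 2 and 0, the top peak of Wnt9a having 120 in replicate 1 and 71 in replicate 2 while there was no peak in either list at Wnt3a. Wnt3 and Wnt9b, 24.3 kb apart on the same chromosome, had 1 and 0. In each of these 3 couples, then, 1 gene was open and its neighbour was not, although Wnt9b missed the rule narrowly. It had a TSS peak in both replicates, 70 bp of which overlapped, and counted as open with an overlap of 1 bp. Wnt6 and Wnt10a, 9.08 kb apart on chromosome 1, were the exception, since neither had a shared TSS peak. Between and around them lay 12 shared distal peaks, 3 given to Wnt6 and 9 to Wnt10a, and the strongest had 123 and 95 at 14.9 kb downstream of the nearest Wnt10a TSS.

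Other short motifs differed among the classes in number only, and none was tested. ACAAAG, the core bound by SOX proteins, stood in 18 of 88 distal peaks of the receptors (20.5%) and 8 of 121 of the ligands (6.61%), with 44 of 398 over all members (11.1%), against 11.3% over all genes. The site of CTCF, an insulator protein, stood in 11 of 121 ligand distal peaks (9.09%), against 6.52% over all genes. The other classes were lower, with 2 of 88 in receptors, 2 of 63 in antagonists, 3 of 109 in effectors and 1 of 17 in R-spondins, and all members had 19 of 398 (4.77%). TAATTA, a homeodomain core, stood in 3 of 17 distal peaks of the R-spondins and 11 of 398 over all members (2.76%), against 2.65% over all genes. At TSS peaks CAGCTG, an E-box, stood in 7 of 21 ligand peaks (33.3%) and 0 of 16 receptor peaks, with 10 of 66 over all members (15.2%), against 10.9% over all genes. TGANTCA, the site of AP-1, stood in 20 of the 398 distal peaks of the members (5.03%), against 6.49%.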
